A study of Mus musculus with 9 samples.

Results

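The genes described here carry fuel carbon into and around the tricarboxylic acid (TCA) cycle of the mouse heart: pyruvate entry, the cycle itself, the breakdown of the branched-chain amino acids, and the use of ketone bodies. The list held 41 gene symbols. Rows of the deposited table were matched to them through the platform annotation, which gave 38 measured genes among 20239 genes with 1 symbol. Pyruvate entry had 6 measured genes of 8 listed, the TCA cycle 13 of 14, branched-chain amino acids 17 of 17 and ketone use 2 of 2. Mpc1, Mpc2 and Suclg2 had no match and were not analysed here. A gene was tested where at least 3 of the 9 arrays exceeded a log2 value of 5.659, the 40th percentile of the table, and all 38 passed.

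Each array measured RNA from a whole heart, atria included, of a male C57BL/6 mouse. Every animal received an adeno-associated virus (AAV) at 8 weeks of age, with its insert under the MLC (myosin light chain) promoter, surgery 4 weeks later, and harvest 4 weeks after surgery. The sham-luciferase group had the luciferase virus and sham surgery. The TAC-luciferase group had the luciferase virus and transverse aortic constriction (TAC), a band on the aorta that raises the pressure against which the left ventricle pumps. The TAC-HDAC4-NT group had TAC and a virus coding for amino acids 1 to 201 of histone deacetylase 4 (HDAC4), its amino-terminal part. Each group had 3 hearts. There was no sham group with HDAC4-NT and no group without virus, so the effect of HDAC4-NT in an unloaded heart and that of the virus itself cannot be read from these arrays.

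In a working heart, pyruvate enters mitochondria and is oxidised to acetyl-CoA by the pyruvate dehydrogenase complex, which kinases switch off and phosphatases switch on. Leucine, isoleucine and valine are first transaminated and then oxidised by the branched-chain ketoacid dehydrogenase complex, which is built and controlled in the same manner. Their carbon reaches the cycle as acetyl-CoA or as succinyl-CoA. Ketone bodies enter through an oxidation and a CoA transfer, the latter using succinyl-CoA from the cycle itself.

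Values are log2 signals made by RMA, scaled so that all 9 arrays share 1 distribution, and every change is therefore relative to the rest of the array. The median standard error of a log2 difference between groups was 0.07, and 3 arrays a group set the limit of precision. Across genes, heart 1 of TAC-luciferase had a Pearson r of 0.991 to 0.992 with the 3 TAC-HDAC4-NT hearts and of 0.986 and 0.987 with hearts 2 and 3 of its own group. Members whose call changed without heart 1, or without both hearts 2 and 3, are therefore named. The leading number of the sample code in the labels is 8 for heart 1 and 9 for hearts 2 and 3. What that number stands for is not known. The mouse Hdac4 probe set read 6.95 ± 0.08 in TAC-HDAC4-NT and 6.97 ± 0.09 in TAC-luciferase (mean ± SD, n = 3). Whether that probe set covers the coding part carried by the virus is not known, so it does not check the label.

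After TAC, transcripts of these pathways were lower in both virus groups. In TAC-luciferase against sham-luciferase, 29 of the 38 genes fell (76.3%), against 14.9% of the 12597 genes tested. Bdh1, the mitochondrial 3-hydroxybutyrate dehydrogenase, was the 1 member that rose (2.63%), against 11.2% of all genes tested. A gene was called at a Benjamini-Hochberg adjusted p under 0.05 in limma. The median log2 fold change was -0.36 over the members and -0.01 over all genes tested. These genes are bright on the array: among the 3102 genes at least as bright as the dimmest member, Acad8, 23.1% fell.

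The HDAC4-NT hearts were lower than sham by a like amount. There 30 of the 38 members fell (78.9%), against 12.3% of all genes tested and 20.5% of the bright ones, and Bdh1 again rose, against 10.5% of all genes tested. The median was -0.36 for the members and -0.01 for all genes. Both comparisons use the same sham hearts, so the second count is not independent of the first. In bulk tissue, fewer cells of a type and less RNA per cell cannot be told apart.

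Without both TAC-luciferase hearts 2 and 3, the count of members that fell against sham in TAC-luciferase went from 29 to 19, while 1 still rose. Heart 1 is then taken to vary like the other groups. The 10 that lost their call were Pdha1, Pdhb, Dlat, Idh3g, Dlst, Mdh1, Mdh2, Bckdk, Acad8 and Pccb, with adjusted p-values of 0.0529 to 0.214. Leaving out any single array gave 26 to 30 in TAC-luciferase and 25 to 30 in TAC-HDAC4-NT.

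**Figure D1:**
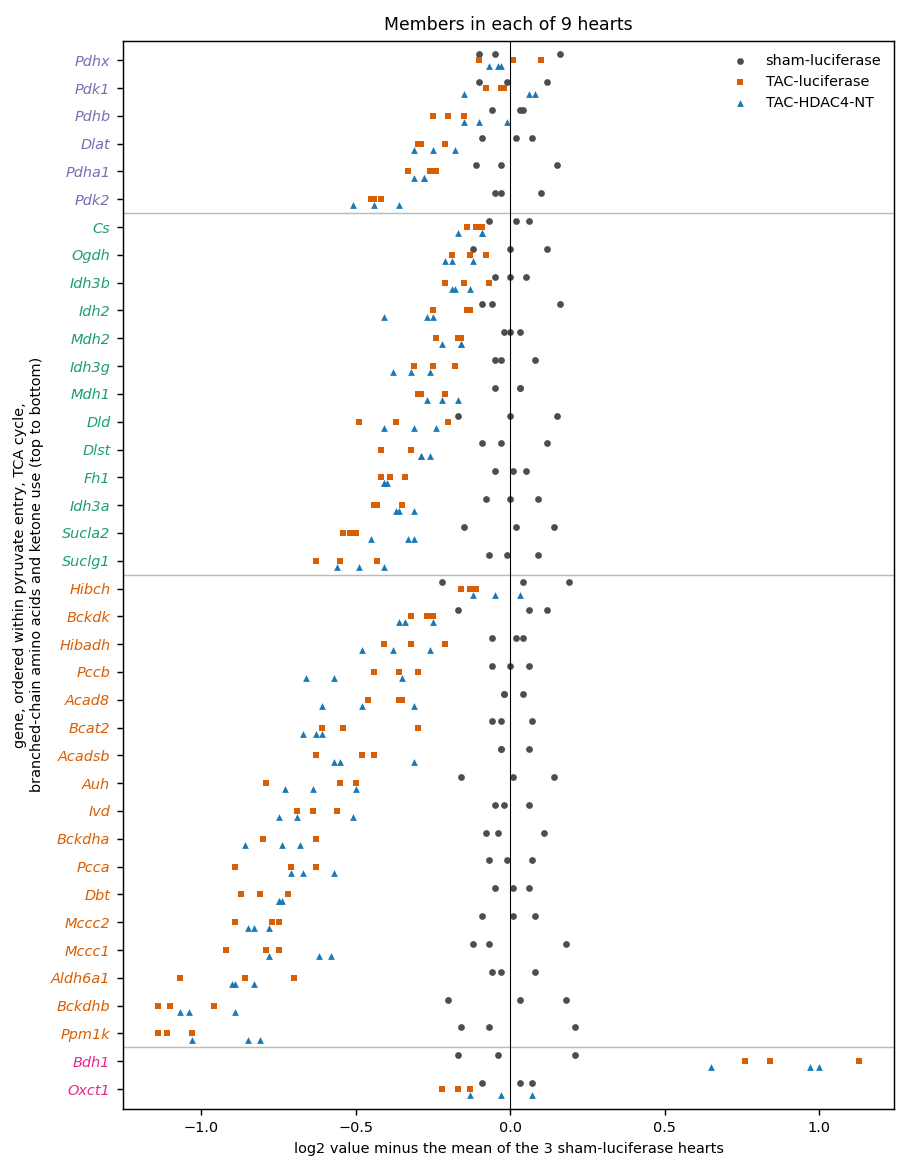
Log2 value of each of the 38 measured genes in each of 9 hearts, minus the gene's mean over the 3 sham-luciferase hearts (horizontal axis), with genes grouped by role (vertical axis). Grey circles are sham-luciferase, orange squares TAC-luciferase and blue triangles TAC-HDAC4-NT; the TAC hearts of both virus groups lie left of the sham hearts for most genes, farthest for Ppm1k and Bckdhb, and right of them for Bdh1.

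Pyruvate entry had the smallest shift of the 3 larger groups. Of its 6 measured genes, 4 fell in TAC-luciferase, with a median of -0.23, and 3 fell in TAC-HDAC4-NT, with a median of -0.17. All 4 that fell in TAC-luciferase lay below every sham heart, as did 21.6% of all genes tested. Per-heart values are given in the order of replicates 1 to 3.

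Pdk2, one of the kinases that inactivate pyruvate dehydrogenase, moved most. It read 12.34, 12.19 and 12.21 in the sham hearts, 11.82, 11.79 and 11.80 in TAC-luciferase, and 11.80, 11.88 and 11.73 in TAC-HDAC4-NT. The 6 TAC hearts overlapped one another and none reached a sham heart. The log2 fold change was -0.44 (SE 0.06, adjusted p = 0.000737) in TAC-luciferase and -0.44 (SE 0.06, adjusted p = 0.000815) in TAC-HDAC4-NT. Pdk1, another kinase of the complex, read 9.06, 8.93 and 8.84 in sham, 8.91, 8.92 and 8.86 in TAC-luciferase, and 9.0, 9.02 and 8.79 in TAC-HDAC4-NT. Its groups overlapped throughout, with differences from sham of -0.05 (95% interval -0.22 to 0.13) and -0.01 (-0.18 to 0.16).

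The catalytic subunits of the complex fell by less. Pdha1, the E1 alpha subunit that the kinases phosphorylate, read 11.99, 11.81 and 11.73 in sham, 11.58, 11.60 and 11.51 in TAC-luciferase, and 11.56, 11.56 and 11.53 in TAC-HDAC4-NT. It was 1.22-fold lower in both TAC groups (adjusted p = 0.0128 and 0.0118). Dlat, the E2 acetyltransferase core, read 10.52, 10.47 and 10.36 in sham, 10.24, 10.15 and 10.16 in TAC-luciferase, and 10.27, 10.20 and 10.14 in TAC-HDAC4-NT. No TAC heart reached the sham range for either gene. Dlat was 1.2-fold lower in TAC-luciferase (adjusted p = 0.00949) and 1.19-fold lower in TAC-HDAC4-NT (adjusted p = 0.0145), the latter at 0.0606 without TAC-HDAC4-NT heart 3.

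Pdhb, the E1 beta subunit, read 11.39, 11.38 and 11.29 in sham, 11.10, 11.20 and 11.15 in TAC-luciferase, and 11.25, 11.20 and 11.34 in TAC-HDAC4-NT. TAC-luciferase lay below both other groups, apart from a shared 11.20 at this rounding, and 1 TAC-HDAC4-NT heart lay inside the sham range. The log2 fold change of -0.20 in TAC-luciferase had an adjusted p of 0.0256, which became 0.0791 without sham heart 1, 0.0672 without sham heart 2, 0.0690 without TAC-luciferase heart 1 and 0.0625 without heart 3. In TAC-HDAC4-NT the difference from sham was -0.09 (95% interval -0.21 to 0.04). Pdhx, which anchors the E3 subunit, stood at -0.00 and -0.05 in the respective TAC groups, with intervals from -0.17 to 0.17 and from -0.22 to 0.13.

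In the TCA cycle, 9 of 13 measured genes fell in TAC-luciferase and 11 of 13 in TAC-HDAC4-NT, with medians of -0.27 and -0.32. All 13 log2 fold changes were below 0 in both comparisons, and in each comparison 12 of the 13 had every TAC heart below every sham heart, against 21.6% of all genes tested in TAC-luciferase and 21.5% in TAC-HDAC4-NT. In TAC-luciferase the largest changes lay at the step from succinyl-CoA to succinate.

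Suclg1, the alpha subunit shared by both succinyl-CoA synthetases, read 9.61, 9.45 and 9.51 in sham, 9.09, 8.97 and 8.89 in TAC-luciferase, and 9.03, 9.11 and 8.96 in TAC-HDAC4-NT. It was 1.45-fold lower in TAC-luciferase (adjusted p = 0.000626) and 1.4-fold lower in TAC-HDAC4-NT (adjusted p = 0.00119). Sucla2, the ADP-forming beta subunit, read 10.88, 10.76 and 10.59 in sham, 10.22, 10.24 and 10.20 in TAC-luciferase, and 10.29, 10.43 and 10.41 in TAC-HDAC4-NT. The TAC-HDAC4-NT hearts stood between the other groups without touching either. Sucla2 was 1.44-fold lower than sham in TAC-luciferase (adjusted p = 0.000977) and 1.29-fold lower in TAC-HDAC4-NT (adjusted p = 0.00658).

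Fh1, the fumarase that hydrates fumarate to malate, had little spread within groups. Its values were 11.18, 11.28 and 11.24 in sham, 10.84, 10.89 and 10.81 in TAC-luciferase, and 10.83, 10.82 and 10.82 in TAC-HDAC4-NT. Both TAC groups lay well under sham and over one another, with log2 fold changes of -0.39 (SE 0.05, adjusted p = 0.000383) and -0.41 (SE 0.05, adjusted p = 0.000317). Mdh2 and Mdh1, the mitochondrial and cytosolic malate dehydrogenases, stood at -0.19 and -0.27 in TAC-luciferase and at -0.18 and -0.22 in TAC-HDAC4-NT, all called. In TAC-HDAC4-NT the call of Mdh1 ended without TAC-HDAC4-NT heart 1 (adjusted p = 0.0587). That of Mdh2 ended without sham heart 1 (0.0584), TAC-HDAC4-NT heart 1 (0.0540) or heart 2 (0.0777). Cyclic loess scaling ended the call of Mdh2 in both comparisons, at -0.13 each (adjusted p = 0.0707 and 0.0739).

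NAD-dependent isocitrate dehydrogenase is built from 3 kinds of subunit, and they moved unequally. Idh3a, the catalytic subunit, read 11.55, 11.46 and 11.38 in sham, 11.02, 11.03 and 11.11 in TAC-luciferase, and 11.15, 11.10 and 11.09 in TAC-HDAC4-NT. No TAC heart came near the sham hearts, and the gene was 1.33-fold and 1.27-fold lower (adjusted p = 0.000802 and 0.00220). Idh3g, a regulatory subunit, read 12.66, 12.55 and 12.53 in sham, 12.40, 12.27 and 12.33 in TAC-luciferase, and 12.32, 12.20 and 12.26 in TAC-HDAC4-NT. It stood at -0.24 in TAC-luciferase (adjusted p = 0.0145, or 0.0549 without TAC-luciferase heart 2) and at -0.32 in TAC-HDAC4-NT (adjusted p = 0.00454). Idh3b, the other regulatory subunit, stood at -0.14 (adjusted p = 0.0717) and at -0.16, where its adjusted p of 0.04999 passed by a hair. The latter call was lost in 14 of the other 18 settings at this threshold, single arrays included. It was lost without TAC-luciferase heart 1 (adjusted p = 0.0584) and without both TAC-luciferase hearts 2 and 3, with the value still at -0.16.

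Idh2, the NADP-dependent mitochondrial enzyme, was not called in TAC-luciferase at -0.18 (95% interval -0.35 to -0.01, adjusted p = 0.122). It fell in TAC-HDAC4-NT at -0.32 (adjusted p = 0.0161, or 0.0603 without TAC-HDAC4-NT heart 2). The difference between these groups themselves was -0.14 with an adjusted p of 0.467. Citrate synthase, Cs, which opens the cycle, stood at -0.12 in both TAC groups (adjusted p = 0.124 and 0.121).

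The subunits of the oxoglutarate dehydrogenase complex were not all called. Dlst, its E2 core, fell by 0.36 in TAC-luciferase (adjusted p = 0.00297) and by 0.28 in TAC-HDAC4-NT (adjusted p = 0.01). Ogdh, its E1 subunit, stood at -0.13 (95% interval -0.28 to 0.02) and -0.18 (-0.33 to -0.02) and was called in neither, though it passed in TAC-HDAC4-NT without sham heart 2 (adjusted p = 0.0331). Dld, the E3 subunit that this complex shares with the pyruvate and branched-chain dehydrogenases, stood at -0.35 in TAC-luciferase (adjusted p = 0.0256) and -0.32 in TAC-HDAC4-NT (adjusted p = 0.0419).

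Dld had a wider spread than most members, and its calls depended on single arrays. In TAC-luciferase the adjusted p was 0.0694 without sham heart 1, 0.0784 without sham heart 2, 0.0682 without TAC-luciferase heart 1 and 0.0692 without heart 2. In TAC-HDAC4-NT the call ended without sham heart 1 or 2, without any 1 of the TAC-HDAC4-NT hearts, and without TAC-luciferase heart 2, with adjusted p-values of 0.0569 to 0.132.

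The branched-chain amino acid genes had the deepest loss. In each TAC group 16 of 17 fell against sham, with medians of -0.63 and -0.64, and Hibch was the exception in both. The 16 had every TAC heart below every sham heart in both comparisons, against 21.6% and 21.5% of all genes tested, and apart from Bckdk they kept their call without any single array. The difference between these genes and the TCA cycle genes is a description and was not tested.

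Ppm1k had the largest fall in TAC-luciferase, Mccc2 the smallest adjusted p among members with a promoter window, and Bdh1 was the member that rose, so the bases upstream of their start sites are printed here. RefSeq's promoter table (GRCm38.p6) held windows for 36 of the 38 measured genes, without Idh3a and Dbt. Each stretch is the 200 bases before an annotated start, read 5′ to 3′ on the gene's strand. Capitals mark CG dinucleotides. Bdh1 has another annotated start, which is not shown.
Ppm1k, chr6:57535488-57535687, minus strand: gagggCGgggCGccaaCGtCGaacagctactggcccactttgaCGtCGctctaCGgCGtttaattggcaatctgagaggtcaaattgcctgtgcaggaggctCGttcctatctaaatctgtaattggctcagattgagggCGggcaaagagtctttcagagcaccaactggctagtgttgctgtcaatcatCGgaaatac
Mccc2, chr13:100015640-100015839, minus strand: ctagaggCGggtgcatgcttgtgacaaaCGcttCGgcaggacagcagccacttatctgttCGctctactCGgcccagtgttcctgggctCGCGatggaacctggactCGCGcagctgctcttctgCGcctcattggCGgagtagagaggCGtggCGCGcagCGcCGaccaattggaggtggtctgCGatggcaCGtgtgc
Bdh1, chr16:31422097-31422296, plus strand: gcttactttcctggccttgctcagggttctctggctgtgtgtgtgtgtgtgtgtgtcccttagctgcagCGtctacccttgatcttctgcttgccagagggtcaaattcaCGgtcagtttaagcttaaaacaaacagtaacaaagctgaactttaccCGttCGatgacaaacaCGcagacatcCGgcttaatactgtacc
The Ppm1k stretch holds 11 CG dinucleotides, that of Mccc2 18 and that of Bdh1 6. The stretch before the Bdh1 start that is not shown holds 8. Over the full windows, 250 bases before to 50 after the start, the 48 member windows had a median of 18 CG dinucleotides and 59% G or C, against 7 and 52.7% over 32851 windows of all genes. The full windows of Bdh1 hold 7 at the start printed and 17 at the other, that of Ppm1k 16 and that of Mccc2 19. By role the median was 22.5 for pyruvate entry, 21 for the TCA cycle and 15 for branched-chain amino acids. For ketone use it was 11, over only 3 windows. The windows of all genes were not limited to genes above the filter, which all members passed, so the difference cannot be read as particular to these pathways. TNAAGGTCA, the extended half-site bound by estrogen-related receptors with N for any base, was searched on both strands. It occurred in 0 of the 36 genes with a window and in 1.43% of all 27025 genes with one, so these letters were absent from these windows and nothing follows about the factor.

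At the head of the pathway, Bcat2, the mitochondrial transaminase, stood at -0.48 in TAC-luciferase and -0.63 in TAC-HDAC4-NT (adjusted p = 0.00229 and 0.000558). Of the ketoacid dehydrogenase complex, Bckdhb, the E1 beta subunit, read 9.16, 8.78 and 9.01 in sham, 8.02, 7.84 and 7.88 in TAC-luciferase, and 7.91, 7.94 and 8.09 in TAC-HDAC4-NT. The highest TAC heart lay far below the lowest sham heart. Bckdhb was 2.1-fold lower in TAC-luciferase (adjusted p = 0.000107) and 2.01-fold lower in TAC-HDAC4-NT (adjusted p = 0.000151).

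Bckdha, the E1 alpha subunit, read 9.29, 9.48 and 9.33 in sham, 8.74, 8.57 and 8.74 in TAC-luciferase, and 8.51, 8.69 and 8.63 in TAC-HDAC4-NT. Dbt, the E2 core, read 9.86, 9.81 and 9.75 in sham, 8.99, 8.93 and 9.08 in TAC-luciferase, and 9.06, 9.05 and 9.05 in TAC-HDAC4-NT. Both genes were low in all 6 TAC hearts, and the TAC groups overlapped. Bckdha was 1.61-fold and 1.69-fold lower than sham (adjusted p = 0.000252 and 0.000171). Dbt was 1.74-fold and 1.68-fold lower, with the smallest adjusted p among the members in both comparisons (2.13e-05 and 3.01e-05).

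The phosphatase and the kinase that set the activity of this complex both fell, the phosphatase by more. Ppm1k, the phosphatase that activates it, read 8.71, 8.43 and 8.34 in sham, 7.36, 7.47 and 7.39 in TAC-luciferase, and 7.69, 7.47 and 7.65 in TAC-HDAC4-NT. All TAC hearts were far under sham, and TAC-HDAC4-NT hearts 1 and 3 stood above the TAC-luciferase range. The log2 fold change was -1.09 (SE 0.10, adjusted p = 9.76e-05) in TAC-luciferase and -0.89 (SE 0.10, adjusted p = 0.000271) in TAC-HDAC4-NT.

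Bckdk, the kinase that inactivates it, read 9.48, 9.42 and 9.19 in sham, 9.11, 9.09 and 9.04 in TAC-luciferase, and 9.0, 9.11 and 9.02 in TAC-HDAC4-NT. Sham heart 3 lay close to the TAC hearts, without overlap. The differences were -0.28 (adjusted p = 0.0224) and -0.32 (adjusted p = 0.0149). The first lost its call without sham heart 1 (0.0763) or 2 (0.0683) and without TAC-luciferase heart 2 (0.0549) or 3 (0.0682), and the second without TAC-HDAC4-NT heart 1 (0.0597) or 3 (0.0536). The difference between the change of the phosphatase and that of the kinase was not tested.

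Beyond the complex, all 4 listed leucine steps fell in both groups. Mccc2, the beta subunit of methylcrotonyl-CoA carboxylase, read 8.54, 8.47 and 8.37 in sham, 7.71, 7.69 and 7.57 in TAC-luciferase, and 7.63, 7.61 and 7.68 in TAC-HDAC4-NT. The TAC hearts formed 1 low cluster, 1.74-fold lower in TAC-luciferase (adjusted p = 3.56e-05) and 1.77-fold lower in TAC-HDAC4-NT (adjusted p = 3.40e-05). Mccc1, the biotin-carrying alpha subunit, stood at -0.82 and -0.66. Ivd, isovaleryl-CoA dehydrogenase, stood at -0.63 and -0.64, and Auh, methylglutaconyl-CoA hydratase, at -0.61 and -0.62.

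Among the 5 valine and isoleucine genes, 4 fell in both groups. Aldh6a1, the methylmalonate semialdehyde dehydrogenase at the end of the valine route, stood at -0.87 in both (adjusted p = 0.000165 and 0.000180). Acadsb, the short branched-chain acyl-CoA dehydrogenase, stood at -0.52 and -0.48, Acad8, isobutyryl-CoA dehydrogenase, at -0.39 and -0.47, and Hibadh, hydroxyisobutyrate dehydrogenase, at -0.31 and -0.37. Hibch, the hydrolase between Acad8 and Hibadh on the valine route, stood at -0.13 (95% interval -0.34 to 0.07) and -0.05 (-0.25 to 0.16). Sham heart 1 was its lowest value, and without that heart it passed in TAC-luciferase (adjusted p = 0.0363). Pcca and Pccb, the subunits of propionyl-CoA carboxylase, stood at -0.74 and -0.36 in TAC-luciferase and at -0.65 and -0.53 in TAC-HDAC4-NT, all called.

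Ketone genes went apart. Bdh1, which interconverts 3-hydroxybutyrate and acetoacetate, read 8.91, 9.29 and 9.04 in sham, 9.84, 10.21 and 9.92 in TAC-luciferase, and 10.05, 9.73 and 10.08 in TAC-HDAC4-NT. Every TAC heart was above every sham heart, and the TAC groups overlapped. Bdh1 was 1.89-fold higher in TAC-luciferase (SE 0.13 on the log2 scale, adjusted p = 0.00113) and 1.84-fold higher in TAC-HDAC4-NT (SE 0.13, adjusted p = 0.00157), a call kept in every setting tried.

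Oxct1, the transferase that activates acetoacetate, read 11.15, 11.11 and 10.99 in sham, 10.95, 10.91 and 10.86 in TAC-luciferase, and 11.05, 10.95 and 11.15 in TAC-HDAC4-NT. TAC-luciferase was lowest, apart from a 10.95 shared with TAC-HDAC4-NT at this rounding, while TAC-HDAC4-NT overlapped sham and reached below it. Oxct1 was not called in TAC-luciferase at -0.18 (95% interval -0.33 to -0.03, adjusted p = 0.0758), though it passed without sham heart 3 (adjusted p = 0.0433), and stood at -0.03 in TAC-HDAC4-NT (-0.18 to 0.12).

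**Figure D2:**
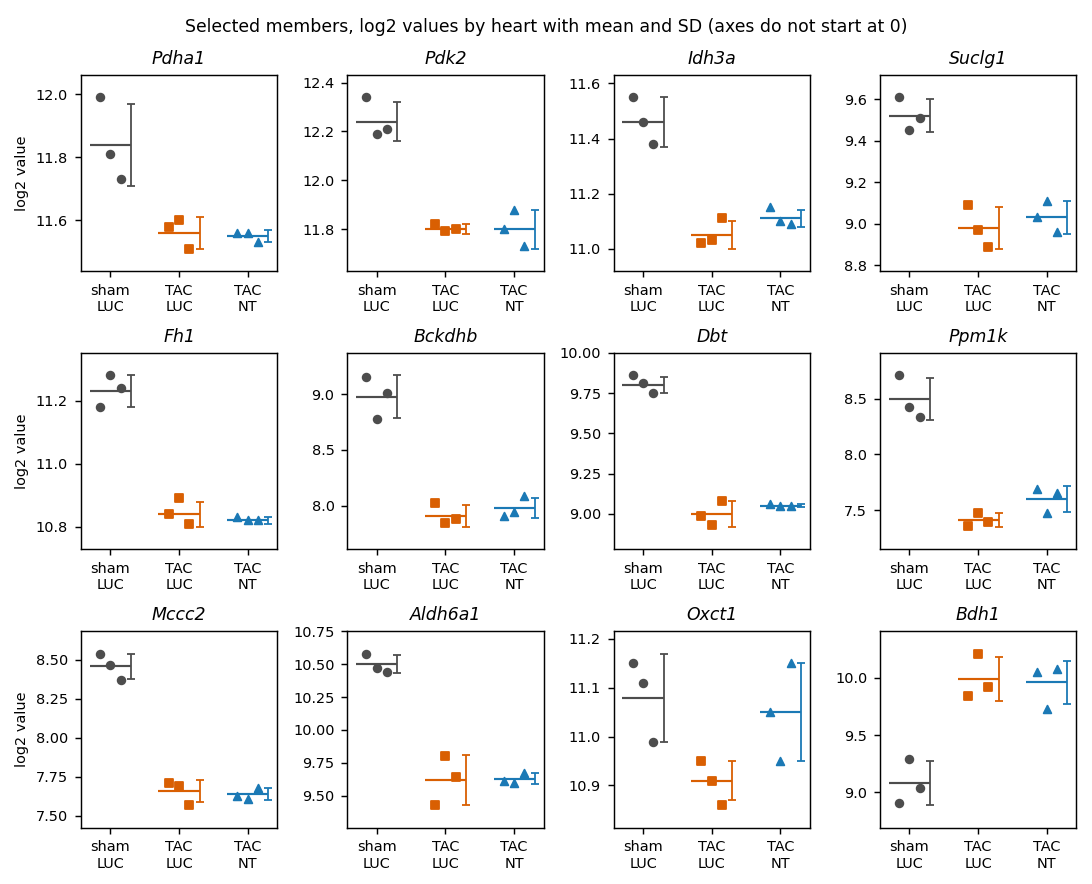
Log2 values of 12 members in the 3 groups (horizontal axis: sham with luciferase virus, TAC with luciferase virus, TAC with HDAC4-NT virus), 1 point per heart, with a horizontal line at the mean and a bar of 1 SD. The vertical axes differ between genes and do not start at 0; the TAC hearts of both virus groups lie below the sham hearts in all panels but Oxct1, where TAC-HDAC4-NT overlaps sham, and Bdh1, where they lie above.

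How far a gene fell was related to its signal within the TCA cycle but not within branched-chain catabolism. Over the 13 cycle genes, the log2 fold change in TAC-luciferase lay nearer 0 at higher sham signal (Pearson r 0.90, Spearman rho 0.84), so the brightest probe sets changed least. Over the 17 branched-chain genes r was -0.01 and rho -0.07. These are descriptions across genes of the same arrays, and the sham values enter both axes. Between sham signals of 9.52 and 11.36, which both groups of genes cover, the 5 cycle genes had a median of -0.39 and the 5 branched-chain genes a median of -0.63 in TAC-luciferase, and -0.37 and -0.64 in TAC-HDAC4-NT. The part of the signal level in these differences was not tested.

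**Figure D3:**
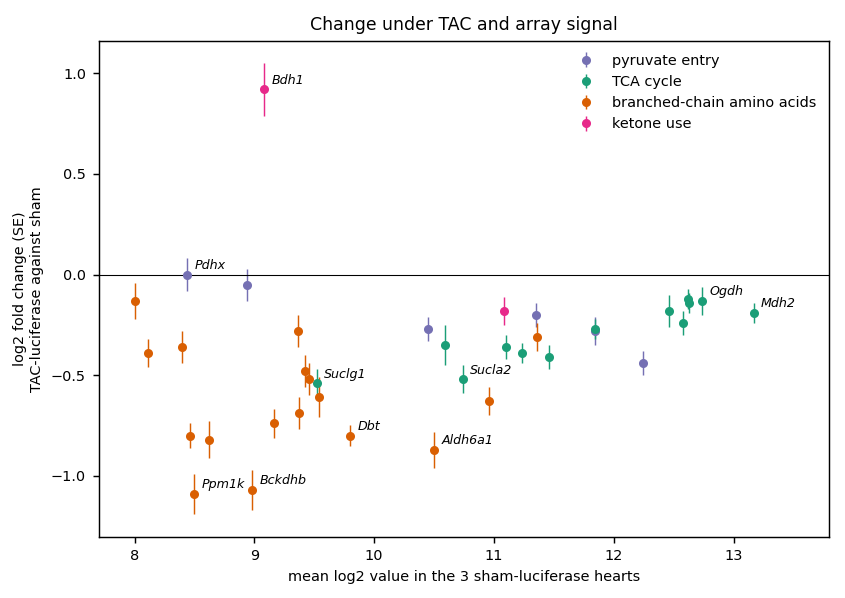
Log2 fold change of each member in TAC-luciferase against sham, with its SE (vertical axis), against its mean log2 value in the 3 sham hearts (horizontal axis), coloured by role. The TCA cycle genes approach 0 as the signal rises to 13.17, the branched-chain genes spread from -1.09 to -0.13 at signals of 8.00 to 11.36, and Bdh1 stands alone at 0.92.

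HDAC4-NT was compared with luciferase in the TAC hearts, where the surgery and the virus type were the same. Without a sham group with HDAC4-NT, an altered response to TAC and an effect of the transgene without load cannot be told apart. The leading number of the sample code also differed between these groups. None of the 38 members was called: 0 were lower, against 0.111% of all genes tested, and 0 were higher, against 0.143%. None had an unadjusted p under 0.05 in limma, the lowest adjusted p was 0.356, and no member was called in any other setting tried. The median difference was 0.00 over the members and 0.00 over all genes, with members between -0.17 and 0.20. The 95% intervals together ran from -0.35 to 0.41, each for 1 gene and not adjusted over the 38.

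A few members did not overlap between these groups. Pdhb, Dlst, Sucla2 and Oxct1 (10.5% of members) were higher in all 3 TAC-HDAC4-NT hearts, against 11.6% of all genes tested, and Bcat2 (2.63%) was lower in all 3, against 8.80%. Both shares are near or under those of all genes. The differences were 0.11 for Pdhb (95% interval -0.01 to 0.24), 0.07 for Dlst (-0.06 to 0.21), 0.16 for Sucla2 (-0.01 to 0.32), 0.15 for Oxct1 (-0.00 to 0.29) and -0.16 for Bcat2 (-0.33 to 0.02). Ppm1k had the largest difference of any member, 0.20 (-0.02 to 0.41, adjusted p = 0.405), and its groups touched at 7.47.

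**Figure D4:**
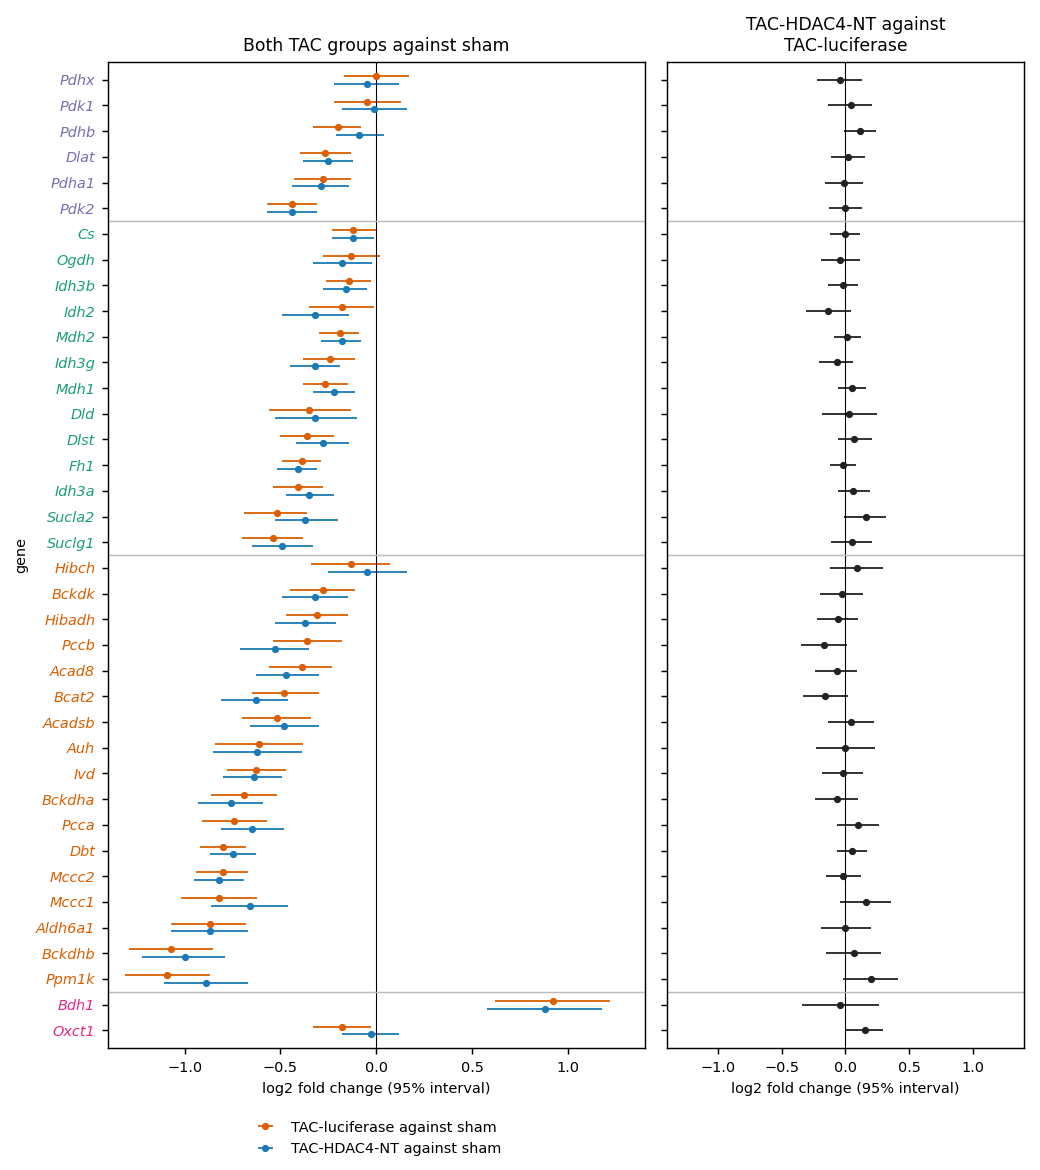
Log2 fold changes with 95% intervals (horizontal axis) of the 38 members (vertical axis, grouped by role as in the plot of single hearts). Left, each TAC group against sham; right, TAC-HDAC4-NT against TAC-luciferase, where the estimates lie between -0.17 and 0.20.

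Other genes of these pathways were taken from lists set with earlier results of these arrays known. Of all genes tested, 14.9% fell and 11.2% rose in TAC-luciferase, and 12.3% fell and 10.5% rose in TAC-HDAC4-NT. The share called in each list is given beside its counts. Of 12 further pyruvate genes, 7 fell (58.3%) and 2 rose (16.7%) in TAC-luciferase, and 6 fell (50%) and 2 rose (16.7%) in TAC-HDAC4-NT. Without both TAC-luciferase hearts 2 and 3, the TAC-luciferase calls of Me2, Sdha, Sdhb, Sdhd, Mmadhc, Slc3a2, Acat1, Ppargc1b and Idh1, among the genes named from these lists, ended (adjusted p = 0.0527 to 0.531). Pdp2 and Pdp1, the phosphatases that switch pyruvate dehydrogenase on, and Pdpr, their regulatory subunit, fell in TAC-luciferase at -0.66, -0.62 and -0.40. Pdp2 and Pdpr also fell in TAC-HDAC4-NT, at -0.50 and -0.36. Me3, a mitochondrial malic enzyme, stood at -0.49 and -0.55, while Me2, another, rose by 0.19 and 0.32. Without sham heart 2 or TAC-luciferase heart 1 or 2, Me2 lost its call in TAC-luciferase (adjusted p = 0.0579, 0.0590 and 0.0510). Pdk3, a kinase, rose by 0.24 and 0.18, the latter lost without sham heart 2 or 3 or TAC-HDAC4-NT heart 1 or 3 (adjusted p = 0.0759 to 0.121).

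Pdp1 was the pyruvate gene that set the virus groups apart most. It read 9.12, 9.13 and 8.90 in sham, 8.55, 8.41 and 8.32 in TAC-luciferase, and 9.16, 9.01 and 8.83 in TAC-HDAC4-NT. TAC-luciferase lay below both other groups, which overlapped. Pdp1 was higher in 3 of 3 TAC-HDAC4-NT hearts than in TAC-luciferase, as were 11.6% of all genes tested. It was higher by 0.57 (SE 0.10), with an adjusted p of 0.0556 that missed the threshold. It passed with the stricter filter (adjusted p = 0.0383), a trended prior (0.0446), array weights (0.0118), the sample code as a random block (0.0347), the replicate block (0.0221) and without TAC-luciferase heart 1 (0.0103), and lay at up to 0.346 over all settings. The replicate numbers did not pair the hearts, and no sample code number is shared between groups. The passes of Pdp1 with those blocks therefore do not check its difference. Pdk4, the kinase induced by fatty acids and fasting, varied within groups: 11.95, 12.29 and 11.87 in sham, 11.21, 12.07 and 12.10 in TAC-luciferase, and 11.28, 11.84 and 11.30 in TAC-HDAC4-NT. TAC-luciferase heart 1 stood with the lower TAC-HDAC4-NT hearts. No comparison of Pdk4 was called, but its difference of -0.56 between TAC-HDAC4-NT and sham passed without TAC-luciferase heart 1 (adjusted p = 0.0312).

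Among 17 further TCA cycle and shuttle genes measured, 11 fell (64.7%) and 1 rose (5.88%) in TAC-luciferase, and 9 fell (52.9%) and 1 rose (5.88%) in TAC-HDAC4-NT. Ogdhl, the oxoglutarate dehydrogenase-like E1 subunit, read 9.41, 9.45 and 9.56 in sham, 8.29, 8.39 and 8.22 in TAC-luciferase, and 8.13, 8.38 and 8.25 in TAC-HDAC4-NT. No TAC heart came near the sham hearts, and the log2 fold changes were -1.17 (adjusted p = 2.05e-05) and -1.22 (adjusted p = 1.72e-05). Nnt, the transhydrogenase that makes mitochondrial NADPH, stood at -0.50 and -0.52, Slc25a12, an aspartate-glutamate carrier, at -0.34 and -0.32, and Got1, the cytosolic aspartate transaminase, at -0.29 and -0.32. The mitochondrial citrate carrier Slc25a1 rose by 0.39 and 0.45. All 4 succinate dehydrogenase subunits, named after their values were seen, fell in both groups, Sdha at -0.43 and -0.41, Sdhb at -0.25 and -0.32, Sdhc at -0.39 and -0.25, and Sdhd at -0.32 and -0.23. Without both TAC-luciferase hearts 2 and 3, the TAC-luciferase values were -0.38 for Sdha (adjusted p = 0.0605), -0.15 for Sdhb (0.297) and -0.19 for Sdhd (0.114), none called. The TAC-luciferase call of Sdhb also ended without sham heart 1 (adjusted p = 0.0685), TAC-luciferase heart 2 (0.0710) or heart 3 (0.0561). In TAC-HDAC4-NT, Sdhc lost it without sham heart 2 or 3 or TAC-HDAC4-NT heart 2 or 3 (0.0553 to 0.103). Sdhd lost it there without any 1 of the sham or TAC-HDAC4-NT hearts or TAC-luciferase heart 2 (0.0552 to 0.130).

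Idh1, the cytosolic NADP-dependent isocitrate dehydrogenase, also named after its values were seen, read 8.70, 8.71 and 8.31 in sham, 8.26, 7.43 and 7.68 in TAC-luciferase, and 8.42, 8.47 and 8.27 in TAC-HDAC4-NT. TAC-luciferase lay below both other groups, with heart 1 just under them, and the other groups overlapped. Idh1 fell in TAC-luciferase at -0.78 (adjusted p = 0.0158), a call lost without sham heart 1 (0.0595), sham heart 2 (0.0548) or TAC-luciferase heart 3 (0.0524), and at -0.31 (0.250) without both hearts 2 and 3. In TAC-HDAC4-NT it stood at -0.18 against sham (adjusted p = 0.574). Idh1 was higher in 3 of 3 TAC-HDAC4-NT hearts than in TAC-luciferase, as were 11.6% of all genes tested. The difference was 0.60 (adjusted p = 0.198), which passed with array weights (0.0228) and without TAC-luciferase heart 1, at 0.84 (0.00856).

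Of 12 further branched-chain genes, 7 fell (58.3%) and 3 rose (25%) in TAC-luciferase, and 8 fell (66.7%) and 2 rose (16.7%) in TAC-HDAC4-NT. Mmut, the methylmalonyl-CoA mutase that makes succinyl-CoA from propionyl-CoA carbon, read 9.48, 9.31 and 9.33 in sham, 8.56, 8.45 and 8.50 in TAC-luciferase, and 8.60, 8.62 and 8.66 in TAC-HDAC4-NT. Its TAC hearts formed 1 low cluster, at log2 fold changes of -0.87 and -0.75 (adjusted p = 2.20e-05 and 4.96e-05). Mmab and Mmadhc, which prepare its cobalamin cofactor, stood at -0.69 and -0.26 in TAC-luciferase and at -0.56 and -0.40 in TAC-HDAC4-NT, and Echs1, the short-chain enoyl-CoA hydratase, at -0.41 and -0.40.

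Other genes of this branched-chain list rose. Slc7a5 and Slc3a2, the subunits of a plasma membrane carrier of large neutral amino acids, stood at 0.97 and 0.66 in TAC-luciferase, and Abat, a GABA transaminase placed with the valine genes in some lists, at 0.63. In TAC-HDAC4-NT, Slc7a5 stood at 0.66, Abat at 0.40 and Slc3a2 at 0.13, the last not called. Slc3a2 read 9.48, 9.65 and 9.93 in sham, 10.20, 10.59 and 10.25 in TAC-luciferase, and 9.80, 9.81 and 9.85 in TAC-HDAC4-NT. It was lower in 3 of 3 TAC-HDAC4-NT hearts than in TAC-luciferase by a log2 difference of -0.53 (adjusted p = 0.0922), which passed without TAC-luciferase heart 1 (0.0335). Of the 12 genes of this list, 5 (41.7%) were lower without overlap between these groups, against 8.80% of all genes tested. Another 1 (8.33%) was higher, against 11.6%. Slc7a5 and Abat were among the lower ones, at -0.31 and -0.23 (adjusted p = 0.324 and 0.153), and none of the 12 was called. Of the other ketone and acetate genes, 2 of 3 tested fell in both groups (66.7%). Acss1, the mitochondrial acetyl-CoA synthetase, stood at -0.70 and -0.75, and Acat1, the acetoacetyl-CoA thiolase that follows Oxct1, at -0.30 and -0.36.

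Of 6 regulators of these pathways, 4 fell in each TAC group (66.7%). Ppara, a fatty acid-sensing nuclear receptor, stood at -0.71 and -0.81, Esrrg, an estrogen-related receptor, at -0.47 and -0.50, and Klf15, a factor known to drive branched-chain catabolism, at -0.51 and -0.84. The TAC-luciferase call of Klf15 ended without sham heart 2 (adjusted p = 0.0543) or 3 (0.0540). Esrra, another estrogen-related receptor, stood at -0.07 and -0.28 and was called in neither, though it passed in TAC-HDAC4-NT without TAC-HDAC4-NT heart 1 (0.0486). Ppargc1b, a coactivator, stood at -0.24 in TAC-luciferase with an adjusted p of 0.0465 that did not hold without any 1 of 7 arrays, namely sham hearts 1 and 2, TAC-luciferase hearts 2 and 3 and each TAC-HDAC4-NT heart (0.0666 to 0.141).

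Ppargc1a, the related coactivator of mitochondrial genes, read 10.33, 10.26 and 10.62 in sham, 9.56, 10.46 and 10.56 in TAC-luciferase, and 9.31, 9.19 and 9.54 in TAC-HDAC4-NT. TAC-luciferase heart 1 stood with the TAC-HDAC4-NT hearts, and hearts 2 and 3 with sham. It fell in TAC-HDAC4-NT against sham at -1.05 (adjusted p = 0.0109). Of all genes tested, 8.80% were lower in 3 of 3 TAC-HDAC4-NT hearts than in TAC-luciferase. Ppargc1a was among them, at -0.85 (adjusted p = 0.142), and passed without TAC-luciferase heart 1 (0.00165). Without TAC-luciferase hearts 2 and 3, it passed in TAC-luciferase against sham (0.0129).

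**Figure D5:**
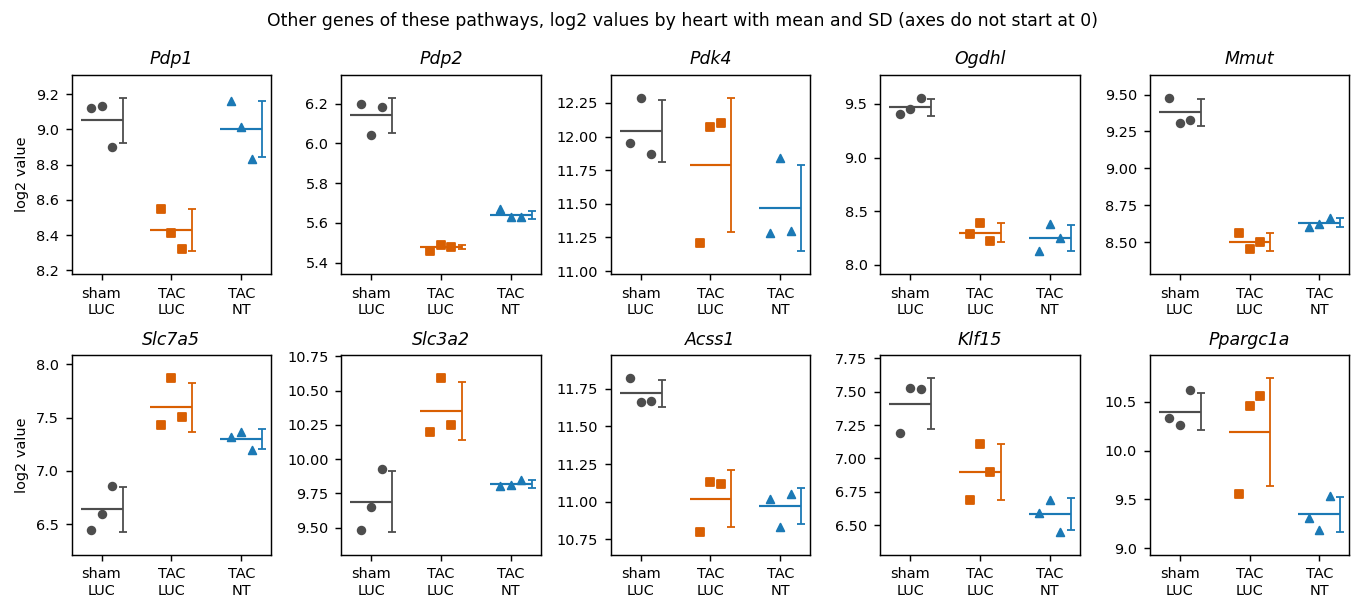
Log2 values of 10 genes from the lists of other pathway genes in the 3 groups (horizontal axis), 1 point per heart, with the mean as a line and 1 SD as a bar; vertical axes differ and do not start at 0. Pdp1 is low in TAC-luciferase alone, Slc3a2 high there alone, Pdk4 and Ppargc1a place TAC-luciferase heart 1 with the TAC-HDAC4-NT hearts, and the other 6 shift from sham in both TAC groups.

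Markers of cell types are given beside these changes, and their counts can be set against the shares of all genes tested: 14.9% fell and 11.2% rose in TAC-luciferase, and 12.3% and 10.5% in TAC-HDAC4-NT. Of 10 cardiomyocyte markers, 3 fell in TAC-luciferase (Myh6, Myl3 and Ckm) and 2 in TAC-HDAC4-NT (Myl3 and Ckm), with medians of -0.11 and -0.12. Their summed linear signal was 88205 to 94540 in sham, 84984 to 87526 in TAC-luciferase and 85823 to 87326 in TAC-HDAC4-NT, and Actc1 sat at the array maximum of 14.11 in 8 hearts. Of 7 fibroblast markers, 5 rose in each group, with medians of 1.01 and 1.19 and summed signals of 5014 to 5492, 7388 to 8111 and 8044 to 8338. Macrophage markers rose for 3 and 5 of 6, with summed signals of 987 to 1158 in sham, 1461 to 1682 in TAC-luciferase and 1416 to 1528 in TAC-HDAC4-NT. Of 6 endothelial markers, 1 rose and 1 fell in TAC-luciferase and 2 rose in TAC-HDAC4-NT, with summed signals of 7155 to 8476, 7703 to 8680 and 9229 to 9749. Of 6 smooth muscle and pericyte markers, 1 rose in TAC-luciferase, and 2 rose and 1 fell in TAC-HDAC4-NT, with summed signals of 5080 to 5610, 4743 to 5453 and 5645 to 6148. Their part in the loss of the members was not tested.

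Atrial tissue varied from heart to heart. The mean log2 signal of 4 atrial markers was 6.43, 7.49 and 6.45 in sham, 5.98, 6.23 and 8.07 in TAC-luciferase, and 5.94, 6.85 and 6.94 in TAC-HDAC4-NT, and none was called. Without TAC-luciferase heart 3, the most atrial, 27 members fell against sham, and without sham heart 2, the next, 26 did. Of the adipose and skeletal muscle markers, Adipoq, Lep, Retn, Ucp1, Elovl3, Mylpf and Pvalb did not pass the filter. Those that passed were Plin1 (5.78 to 5.91), Myh4 (5.69 to 5.80), Tnnt3 (6.10 to 6.39), Prdm16 (6.00 to 6.47) and Cidea (6.5 to 6.93), against an array minimum of 5.03. Of those tested in these lists, only Prdm16, a brown fat regulator, was called, at -0.26 and -0.31. No erythroid marker was called in 4 tested.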

How the data were processed

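Whole-heart RNA was turned into biotin-labelled cRNA and put on Affymetrix arrays, 1 per heart, per the labels' protocols. The authors deposited log2 values, for which the submitters' processing notes name RMA. Neither its version nor the probe set definitions or a genome build is given in the sources used here. RMA compresses low values, so changes of dim genes may be understated. Whether bright values near the array maximum of 14.11 are compressed too was not tested. The table holds 21225 probe sets, of which 20239 have 1 gene symbol in the platform annotation and 986 are not listed there. Their sorted values were identical on all 9 arrays, as quantile normalization leaves them.

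In R 4.3.3, limma 3.58.1 fitted 1 linear model to all 9 arrays (lmFit, contrasts.fit, then eBayes; residual degrees of freedom 6, prior 3.23) on the 12597 genes above the filter, and p-values were adjusted over all of them by the Benjamini-Hochberg method. The filter removed 7642 genes. The script was tested on simulated data. The labels give 3 animals per group. The members and lists were chosen with earlier results of these data known, so no list was tested.

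Per-heart values are given for up to 4 called members with the smallest adjusted p in each role, comparison and direction, for both ketone genes, and for Pdk1, Pdk2, Bckdk and Ppm1k. From each list of other pathway genes, up to 3 called genes with the smallest p in each direction are named, and Pdk4, Klf15, Ppargc1a and Esrra in any case. Alternatives were no filter, a filter at the 60th percentile, a trended robust prior, cyclic loess, array weights, only the arrays compared, a replicate block, a random block made of the leading number in each sample code, adjusted p of 0.01 and 0.1, and each array left out. Leaving out both TAC-luciferase hearts 2 and 3 was added after seeing the data. Promoter windows came from RefSeq (GRCm38.p6). Python 3.11.15 with matplotlib 3.10.9 drew the figures.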

Additional observations from a re-analysis of the deposited data

How the results depend on the processing

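No called member changed direction under any setting. The count of members lower in TAC-luciferase than in sham was 29, and 19 without both TAC-luciferase hearts 2 and 3, a setting added after seeing the data, which leaves 1 heart in that group. It was 26 under cyclic loess, 27 with a replicate block and 26 to 30 without each array in turn. In TAC-HDAC4-NT against sham it was 30, with 27 under cyclic loess, 28 with the replicate block and 25 to 30 without each array. At an adjusted p under 0.01, 21 members fell in each. The median stayed between -0.39 and -0.31 in the first and between -0.40 and -0.31 in the second. At an adjusted p under 0.05, 19 of the 30 members called in TAC-luciferase were called in all 18 other settings, and 24 of 31 in TAC-HDAC4-NT. Between the TAC groups the count stayed at 0 in each direction throughout. The replicate numbers did not pair the samples: deviations of same-numbered hearts correlated at -0.123 to 0.199. The replicate block ended the calls of Pdhb and Dld in TAC-luciferase (adjusted p = 0.0534 and 0.05027) and of Dld and Idh3b in TAC-HDAC4-NT (0.0765 and 0.0894). The sample code gave a block correlation of -0.113. Its leading number is 12 in sham-luciferase, 8 or 9 in TAC-luciferase and 3 or 4 in TAC-HDAC4-NT. No number is shared between groups, so whatever it stands for cannot be told apart from the group differences, and this block cannot correct for it. With 3 hearts a group, the intervals given limit what can be told of differences between the TAC groups.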
